A study of Forsythia koreana with 2 samples.

Results

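A set of 225 abundant transcripts stood at a much higher level in leaf than in flower in the shrub Forsythia viridissima var. koreana, which belongs to the olive family and flowers in yellow. They are the transcripts with more than 1000 expected counts over both tissues whose log2(FPKM + 1) was lower in flower than in leaf by 2 or more, a difference of about 4-fold. FPKM is the number of fragments per kilobase of effective transcript length, scaled by the library total. Of the 69458 transcripts in the deposited set, 1802 reached the count minimum, and the 225 leaf-high ones made up 12.5% of these. A further 245 (13.6%) were higher in flower by the same margin, called flower-high here, and 1332 met neither limit. Among all 69044 transcripts with an FPKM of 1 or more in either tissue, 7.85% met the leaf-high limit. The leaf-high transcripts were chosen by the counts and FPKM of both libraries, so their levels and differences are descriptions and carry no test.

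Flower and leaf were collected in April from untreated plants grown outdoors and labelled as 2 years old, with 1 library per tissue. How many plants a library pooled, and which flower parts or leaf stages were taken, is not in the labels. Poly(A) RNA was selected and sequenced as strand-specific libraries, which held 5466947 expected counts for flower and 4982637 for leaf. Every value below describes these libraries, because the design has no replicates. Intervals of counts, shares and ratios cover counting error only. Intervals of medians cover only the spread over transcripts. In tissue extracts such as these, fewer cells of a type and less RNA per cell cannot be told apart.

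As background, the most abundant messenger RNAs of a green leaf commonly come from nuclear genes for photosynthesis, such as the small subunit of Rubisco, which fixes carbon dioxide, and the chlorophyll-binding proteins that harvest light. Forsythia blooms before its leaves expand, and its yellow petals take their colour from carotenoids. Leaves of the genus are also known for lignans and phenylethanoid glycosides, which are made from phenylpropanoid precursors. The files do not pair transcript identifiers with gene names, so no leaf-high transcript is assigned to any of these processes, and the labelled tissues could not be checked against marker genes. Transcripts are told apart below by length and level, and identifiers are given for 2 of them.

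The 225 leaf-high transcripts took a large part of the leaf library and a small part of the flower library. They held 805849 of the leaf counts, or 16.2% (exact Clopper-Pearson 95% interval 16.1 to 16.2), and 132168 of the flower counts, or 2.42% (2.40 to 2.43). Their summed share was 6.69-fold higher in leaf (6.65 to 6.73). By TPM, the level per effective length scaled to the same total in each library, they held 16.8% of leaf and 2.56% of flower. The 1332 abundant transcripts with neither limit, in comparison, took 34.1% of leaf counts and 29.8% of flower counts. These values are scaled by library totals. TMM scaling, which assumes that most transcripts do not differ, lowers each flower to leaf difference by 0.25 in log2. With it 278 abundant transcripts were leaf-high, all 225 among them, and 217 were flower-high, so which of the sets is larger depended on the scaling.

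The set was uneven. Its most abundant transcript held 12.4% of the set's leaf counts, the 10 with the most leaf counts held 30.9%, and the top 50 held 62.0%. In flower the order was steeper still, with 15.8% of the set's flower counts in its most abundant transcript, 35.1% in the top 10 and 70.1% in the top 50. Leaving out the most abundant transcript lowered the set's share to 14.2% of leaf and 2.04% of flower, and the summed ratio was then 6.96 (6.92 to 7.01). Without the 10 highest by leaf FPKM the shares were 12.1% and 1.81%, and the ratio was 6.68. The summed ratio was thus nearly as large, or larger, without the most abundant transcripts.

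**Figure D1:**
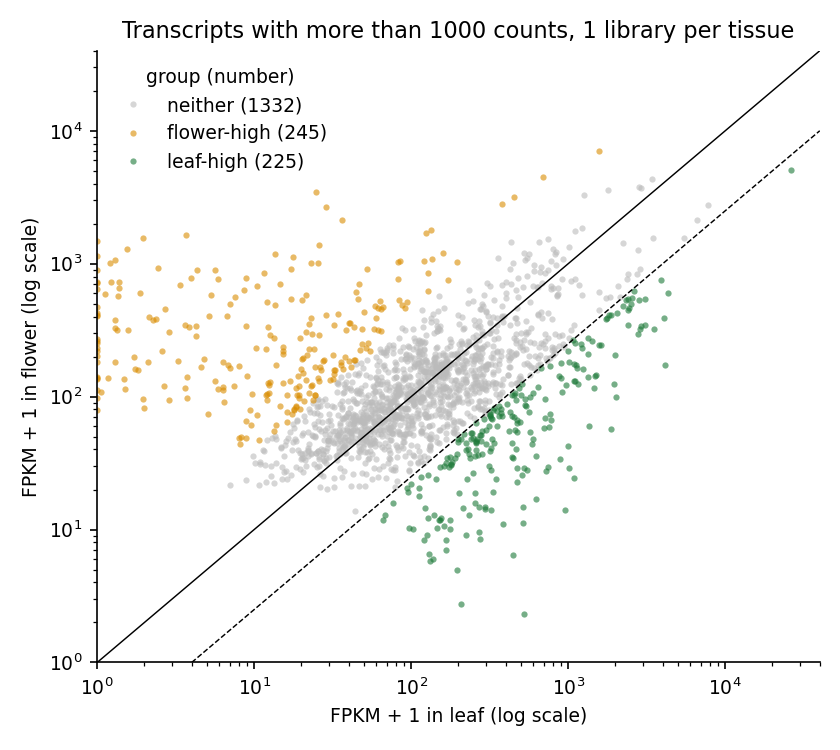
FPKM + 1 in flower (vertical, log scale) against leaf (horizontal, log scale) for the 1802 transcripts with more than 1000 counts, 1 point per transcript. The solid line marks equal levels and the dashed line the leaf-high limit; the 225 leaf-high transcripts lie on or below the dashed line and run from a flower FPKM of 1.30 to one of 5031.

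Among the 100 transcripts with the highest FPKM in leaf, 58 belonged to the set, and so did 6 of the leaf top 10. The highest in leaf of all transcripts was TR18180|c0_g1_i1|c0_g1_i1, 925 bases long and the only transcript of its locus. Its FPKM was 26197 in leaf and 5031 in flower, and it held 99605 leaf counts (95% Poisson interval 98987 to 100226) and 20869 flower counts (20587 to 21154). This transcript was first in the leaf list by FPKM and second in the flower list, so the top of the leaf library was also near the top of the flower library. Its ratio of count shares, leaf over flower, was 5.24 (5.16 to 5.32), below the median of the set.

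A transcript of 2156 bases differed far more. It held 40965 counts in leaf and 1866 in flower, an FPKM of 4123 against 172. Its leaf share was 24.1-fold the flower share (23.0 to 25.2). Its rank by FPKM was 6 in leaf and 752 in flower.

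The other 8 of the 10 highest by leaf FPKM had leaf values from 2867 to 4336 and flower values from 319 to 753. Their ratios ran from 5.21 to 11.2. A transcript of 490 bases had an FPKM of 4336 in leaf and 596 in flower, with 7088 and 1056 counts. A transcript of 227 bases, the shortest of the set, had 4056 and 390 with only 1385 and 139 counts, because a read weighs more per kilobase in a short transcript. Only 4 transcripts were in both the set's top 10 by leaf FPKM and its top 10 by leaf counts. The order by level thus differed from the order by reads.

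Most of the 225 differences were moderate, and a minority were extreme. The median ratio of leaf to flower count shares was 6.65 (quartiles 5.21 and 12.8), and the 90th percentile was 24.1. On the log2(FPKM + 1) scale 89 differed by 2 to 2.5, 43 by 2.5 to 3, 52 by 3 to 4, 28 by 4 to 5, 9 by 5 to 6 and 4 by more than 6. Of the 225, 78 (34.7%) had a ratio of 10 or more, 33 of 20 or more, and 5 of 50 or more. Counting error alone left 209 with a whole 95% interval above 4-fold, against 11.6% of the 1802 abundant transcripts, a figure that the choice of the set fixes. The whole interval lay above 10-fold for 64, above 20-fold for 21 and above 50-fold for 4.

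The largest ratio belonged to TR21796|c2_g1_i2|c0_g1_i1 (727 bases), with 1479 leaf counts and 4 flower counts, an FPKM of 525 against 1.30. Its ratio of 406 is loosely fixed by so few flower reads, with an interval from 158 to 1491. A transcript of 1948 bases followed, with 1837 leaf counts and 17 flower counts and a ratio of 119 (73.8 to 204). The next was 1636 bases long, with 3278 and 44 counts and a ratio of 81.7 (60.8 to 113). A transcript of 917 bases had 3565 and 53 counts, or 73.8-fold (56.3 to 98.7), and one of 817 bases had 1684 and 36, or 51.3-fold (36.9 to 73.5). The intervals of neighbours among the latter 4 overlap, while those of the 1948-base and the 817-base transcript do not. All 5 had leaf FPKM values between 206 and 948, so the most extreme ratios were not at the top of the leaf list.

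**Figure D2:**
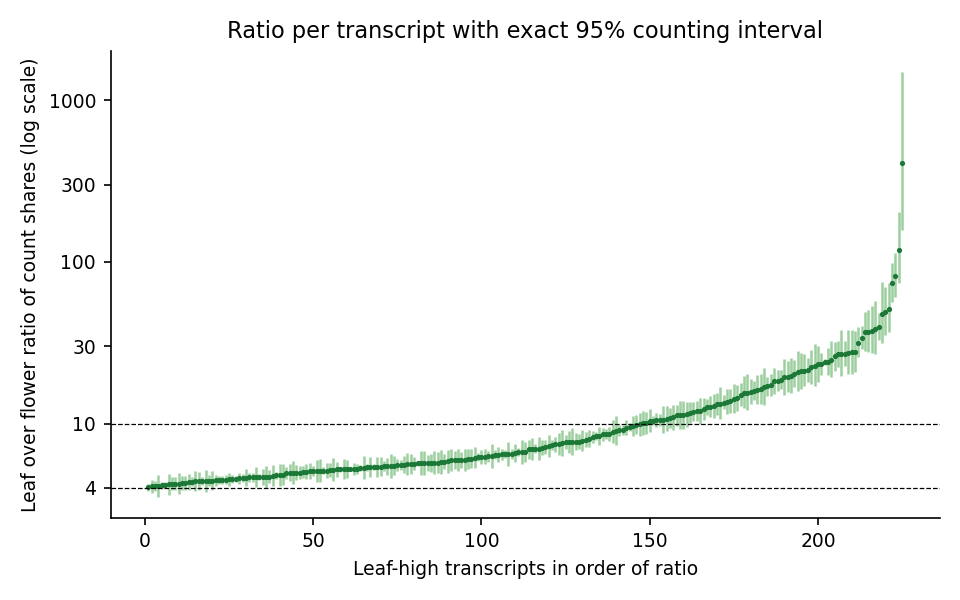
Leaf over flower ratio of count shares (vertical, log scale) for each of the 225 leaf-high transcripts in order of ratio, with its exact 95% counting interval as a line. Dashed lines mark 4-fold and 10-fold; 78 transcripts have a ratio of 10 or more, and the interval widens at the right, where the flower count is as low as 4.

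None of the leaf-high transcripts was without flower reads. The lowest flower count was 4, above the floor of 3 counts used for a transcript without reads, and 212 of the 225 had 50 or more. Flower counts had a median of 235 (quartiles 146 and 562), against 1935 in leaf (1251 and 3469). Flower FPKM had a median of 51.6 (quartiles 24.7 and 117), where the median over all 69458 transcripts was 5.57. In flower, 218 of the 225 stood above that overall median. The median leaf-high transcript was higher in flower than 95.2% of all transcripts. An FPKM of 10 or more in flower was found for 206 (91.6%), one of 50 or more for 115 and one of 100 or more for 65. These shares were 28.8%, 4.98% and 2.16% over all transcripts. Since the count minimum also selects for abundance, the abundant transcripts are the closer comparison. Their median flower FPKM was 108, and 59 of the 225 exceeded it.

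The set was less prominent at the top of flower than the abundant transcripts as a whole, though not less than all transcripts. A flower FPKM of 200 or more was found for 36 of the set. It was found for 25.7% of abundant transcripts and 0.838% of all transcripts. Among the flower top 100 by FPKM, 2 were leaf-high, and among the flower top 1000 there were 50. The 925-base transcript named above was the highest of the set in flower. After it came one of 980 bases, whose flower FPKM was 753 and leaf FPKM 3899, and one of 1433 bases at 626 and 2612. A transcript of 594 bases had 552 in flower and 2542 in leaf. Apart from the 490-base transcript at 7.36, the ratios of the 5 highest in flower were from 4.19 to 5.24, near the limit of the set.

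Flower levels followed leaf levels within the set. Over the 225 transcripts Pearson's r between the tissues was 0.83 for log2(FPKM + 1), and Spearman's rho was 0.80 for FPKM. These are across transcripts of the same libraries, and the rule itself caps the flower level well below the leaf level, so part of the relation is built in. In the 75 transcripts with the lowest leaf FPKM (64.8 to 272) the median flower FPKM was 21.2. In the middle 75 (273 to 626) it was 54.8, and in the highest 75 (626 to 26197) it was 177. The median ratio changed little with the leaf level. It was 6.50, 6.93 and 7.11 in these classes, and rho between leaf FPKM and ratio was -0.03. The upper quartile of the ratio was lower at higher leaf levels, at 15.5, 12.8 and 10.8. A ratio of 10 or more was found for 29, 25 and 24 transcripts.

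Set beside the 245 flower-high transcripts, which mirror them by rule, the leaf-high ones were less extreme. The median flower-high ratio, flower over leaf, was 14.8 (95% interval of the median 10.9 to 23.3, with transcripts lacking leaf reads set at the floor of 3 counts). That of the leaf-high set was 6.65 (6.14 to 7.73). A ratio of 10 or more was found for 141 flower-high transcripts (57.6%), against 78 leaf-high ones (34.7%). In the opposite tissue 38 of the 245 flower-high transcripts had 3 or fewer counts, and none of the leaf-high ones did. An FPKM of 10 or more in the opposite tissue was found for 140 flower-high transcripts (57.1%) and for 206 leaf-high ones (91.6%). Low levels were commoner in leaf over the whole deposited set as well. Over all 69458 transcripts the lower quartile of FPKM was 1.54 in leaf and 2.92 in flower, and the medians were 4.24 and 5.57. The opposite-tissue counts are therefore not a trait of the sets alone. With 1 library per tissue this contrast between the sets has no test, and the intervals treat transcripts as separate draws, which related transcripts are not. With TMM scaling, which also changes the sets, the medians were 6.84 for leaf-high and 18.5 for flower-high.

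Leaf-high transcripts were shorter than other abundant ones. Their median length was 1194 bases (95% interval of the median 1085 to 1323, quartiles 828 and 1636), against 1758 for the flower-high transcripts (1518 to 1881) and 1756 for those with neither limit (1707 to 1814). The gap was present at each level of abundance. Among transcripts with up to 2000 counts the medians were 1157 for leaf-high, 1682 for flower-high and 1780 for neither. Above 2000 and up to 5000 counts they were 1364, 1624 and 1709, and above 5000 counts 1129, 1839 and 1748. In these higher classes the intervals of the leaf-high and flower-high medians overlapped, at 1045 to 1467 against 1413 to 1997 and at 945 to 1352 against 1338 to 2038. All these intervals treat transcripts as separate draws, which related transcripts are not.

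By length class, the leaf-high share was lower in each longer class. It was 34.0% of the 50 abundant transcripts under 500 bases and 20.6% of the 320 from 500 to under 1000 bases. The class under 500 bases held 17 leaf-high transcripts. Among them, 4 of 279 to 487 bases and 2 of 227 and 490 bases shared the first field of their identifier, described below. The share in this class thus rests partly on transcripts that may be related. From 500 bases up, the leaf-high share still fell in each longer class. From 1000 to under 1500 bases it was 17.1%, and from 1500 to under 2000 bases 11.6%. It was 5.88% of the 391 from 2000 to under 3000 bases and 1.99% of the 251 of 3000 bases or more. The flower-high share had no such trend and stayed between 10.4% and 17.6%. The longest leaf-high transcript measured 6154 bases, with 1935 leaf counts and 356 flower counts, a ratio of 5.96 (5.32 to 6.70). Within the set, Spearman's rho between length and ratio was -0.04 over 225 transcripts. Between length and leaf FPKM it was -0.61, on a scale where the same count gives a higher FPKM in a shorter transcript.

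Effective lengths were 3.33 to 4.26 bases longer in leaf than in flower over the set. The FPKM ratio was thereby 0.951 to 0.999 times the ratio of count shares, so this difference lowered the leaf side slightly. Lengths are those of assembled sequences, and no source used here says whether each spans a whole messenger RNA.

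**Figure D3:**
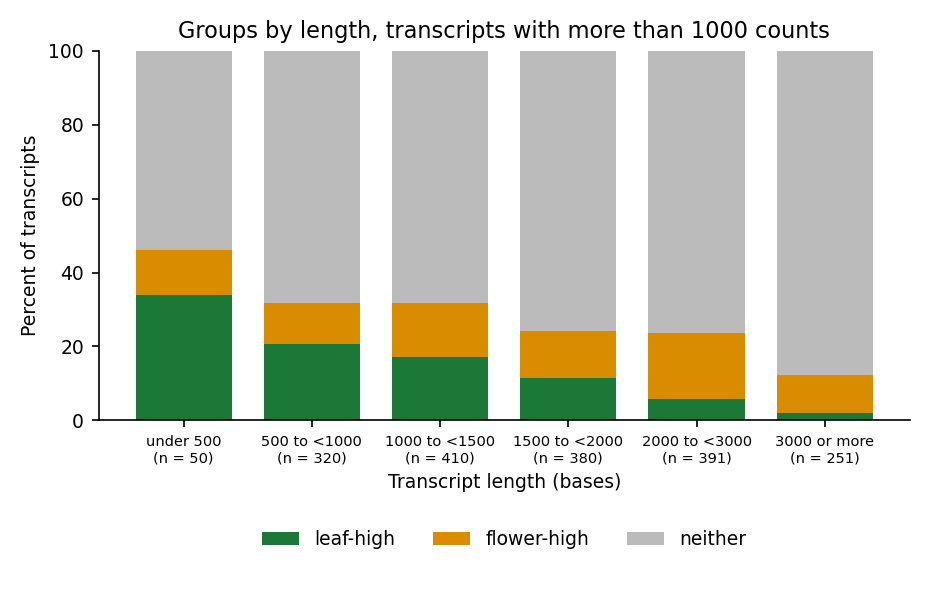
Percent of abundant transcripts (vertical) that were leaf-high, flower-high or neither, by length class in bases (horizontal), with the number of transcripts in each class. The leaf-high part is 34.0% under 500 bases and 1.99% at 3000 bases or more.

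The set has no gap at its edges. The 3 transcripts just inside the difference limit differed by -2.015, -2.014 and -2.007 in log2(FPKM + 1), with ratios of count shares of 4.09, 4.11 and 4.04. The 3 just outside differed by -1.997, -1.993 and -1.984, with ratios of 4.02, 4.04 and 3.98. At the count minimum, the nearest leaf-high transcripts held 1007, 1009 and 1017 counts over both tissues, and the nearest left out held 998, 971 and 968.

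Identifiers were used to look for related transcripts. Each one has the form of a Trinity assembly name, with a first field (the cluster), a component within it, a locus and an isoform number. The 225 transcripts fell into 203 loci, 196 components and 191 clusters. Of the 225, 55 (24.4%) shared their locus with another transcript, against 34.9% of all abundant transcripts and 33.5% of the flower-high ones. Every deposited expected count was a whole number, although RSEM usually divides a shared read into parts. No source used here says how such reads were assigned, so level and ratio are uncertain wherever a partner is near-identical. The 170 transcripts alone at their locus held 12.9% of leaf counts and 2.00% of flower counts, with a median ratio of 6.24.

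At several loci more than 1 transcript was leaf-high. A total of 17 loci held 2 or 3 leaf-high transcripts each, 39 in all. Within a locus the highest ratio was a median 1.48 times the lowest, a span over only 2 or 3 transcripts. Over the whole set the 90th percentile of the ratio was 5.36 times the 10th. Few values span less than many, so these unlike measures do not show that ratios are closer within a locus. Ranked by the leaf counts of their leaf-high transcripts alone, the first locus held 3 of 475, 1519 and 1770 bases, with ratios of 10.6, 6.99 and 10.4. Together they had 20944 leaf counts and 2595 flower counts, a summed ratio of 8.86 (8.50 to 9.23). The second held 3 transcripts of 1019, 1313 and 1948 bases with ratios of 10.5, 10.5 and 8.37. The third held 2, of 1198 and 1417 bases, with an FPKM of 1608 and 1572 in leaf and 244 and 243 in flower. Their ratios of 6.63 and 6.50 have overlapping intervals. At 11 of the 17 loci every transcript was leaf-high. At another, 2 leaf-high transcripts with 7547 leaf counts stood beside 2 partners with more reads, and the locus as a whole had 22500 leaf counts and a ratio of 3.61 (3.52 to 3.71).

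The widest span within a locus was that of TR21796|c2_g1_i2|c0_g1_i1 and its partner of 828 bases. That partner had 2079 leaf counts and 125 flower counts, a ratio of 18.2 (15.2 to 22.0), where the first had a ratio of 406. In leaf the 727-base form made up 45.6% of the locus TPM, and in flower 3.65%. The forms thus stood at similar levels in leaf, and the 828-base form made up nearly the whole locus in flower.

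Changes of form differed in size between loci. Of the 55 transcripts with a locus partner, 32 differed by under 10 percentage points between tissues in their percent of the locus. A higher percent in leaf by 10 points or more was found for 16, and a higher percent in flower for 7. These are counts of transcripts and not of loci. Within a locus a gain in percent by a form is a loss by its partners. Where the partners are also leaf-high, the same change can therefore enter both counts. The 727-base form described above changed by 42.0 points, leaf minus flower, and its 828-base partner by -42.0. The largest change was that of a transcript of 1898 bases, at 96.4% of its locus in leaf and 35.8% in flower, with 1320 and 102 counts. Its partner of 621 bases had only 13 leaf and 48 flower counts, and a read weighs more in a shorter transcript. These percents are thus loosely fixed. The median of the leaf-minus-flower difference was 3.70 points. A gain in leaf is favoured by the choice of leaf-high transcripts, so these counts are a description.

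Summing FPKM over the locus could change the difference at the 33 loci with several transcripts. At 11 of them every transcript was leaf-high, so the sum had to meet the limit as well. Of the 33 loci, 26, with those 11 among them, were leaf-high by 2 or more in log2(FPKM + 1) after summing and 7 were not. The median difference was -2.49, with a range from -5.08 to -1.05. With the loci of a single transcript, where nothing is summed and the rule fixes the outcome, 196 of 203 were leaf-high. The share was 10.5% over all loci with more than 1000 counts, but most of the 196 could not have missed the limit.

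**Figure D4:**
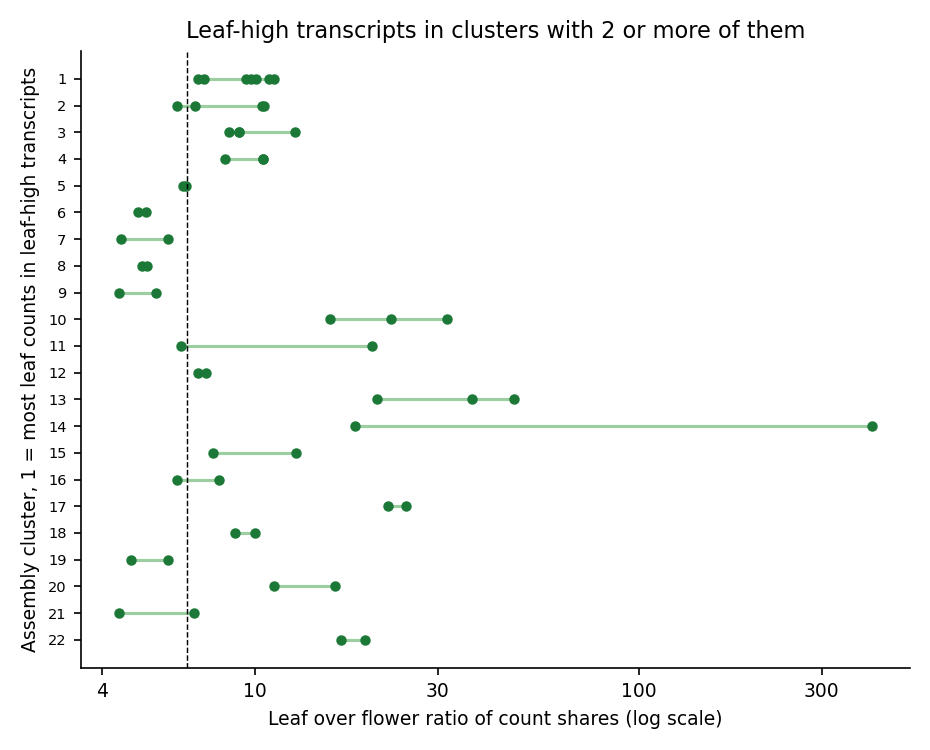
Leaf over flower ratio of count shares (horizontal, log scale) of each leaf-high transcript in the 22 assembly clusters with 2 or more of them, 1 row per cluster in order of the summed leaf counts of these transcripts from the top. The dashed line marks the set's median of 6.65; the first cluster has 7 transcripts between 7.11 and 11.2, and the widest row runs from 18.2 to 406.

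The first field of the identifier was shared by 2 or more leaf-high transcripts in 22 clusters, which held 56 of the 225. In 1 cluster there were 7, from 227 to 938 bases, in 2 components, with ratios from 7.11 to 11.2. Together they held 27769 leaf counts, or 0.557% of the leaf library, and 3471 flower counts, or 0.0635% of flower. Their summed ratio was 8.78 (8.47 to 9.10). The same cluster also held transcripts of 888 and 957 bases that missed the limit, with 19892 and 26290 leaf counts and ratios of 3.52 and 3.14. Over all 17 of its transcripts the cluster had 76164 leaf counts and a ratio of 4.41 (4.34 to 4.48). By the leaf counts of leaf-high transcripts, the next clusters had 4, 4 and 3 leaf-high transcripts and summed ratios of 8.20 (7.91 to 8.50), 9.21 (8.84 to 9.59) and 9.36 (8.96 to 9.77). Over all transcripts of these next clusters the ratios were 8.21, 9.31 and 9.36. Other clusters were at higher ratios with fewer reads, such as one with 3 transcripts of 345 to 567 bases at 31.8 (26.6 to 38.3) and 124 flower counts in all. No source used here says what a shared first field stands for in this assembly, and whether such transcripts are isoforms, related genes or fragments of a gene could not be told without sequences.

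Partners that the rule did not choose could be read for their own difference. Those with more than 1000 counts are left out here, since any that were leaf-high would be in the set by rule. At the same locus 17 partners had 100 to 1000 counts, and 8 of these were leaf-high by 2 or more and 15 by 1 or more. Over all 14349 transcripts with 100 to 1000 counts the shares were 6.17% and 15.4%. With no upper bound on counts, 8 of 25 partners were leaf-high by 2 or more and 21 by 1 or more, beside 6.88% and 16.5% of all transcripts with 100 or more. In the same component but at another locus, 7 of 15 partners were leaf-high by 2 or more, and 1 was flower-high by that margin. With no upper bound these were 7 and 2 of 20, and the second flower-high partner had 1965 flower counts and 0 leaf counts. In the same cluster but another component, 21 of 28 were leaf-high by 2 or more and 2 were flower-high, or 21 and 2 of 32 with no upper bound. The 28 came from 21 clusters, with at most 2 from any of them. No locus of the set held a partner with 100 or more counts that was flower-high by 2 or more, but this rests on 25 partners. Over all transcripts 7.98% with 100 or more counts and 7.28% with 100 to 1000 were flower-high by that margin. The flower-high partners with 100 to 1000 counts were near that share, at 6.67% in the component and 7.14% in the cluster. With so few partners, a lack of flower-high ones cannot be called a trait of the set. Partners were not chosen for their values, but they are not independent of the set where similar transcripts share reads.

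Of the 21 clusters with such partners in another component, the most extreme on the leaf side was that of the 2156-base transcript at 24.1-fold. This cluster held 2 further transcripts with 100 to 1000 counts in another component, of 280 and 269 bases, at ratios of 40.1 (25.2 to 68.1) and 520 (143 to 4296). The latter rests on 947 leaf counts and 2 flower counts, and its size is loosely fixed. The intervals of all 3 lay above the median of the set. At the other end, the only such partner of another cluster was higher in flower, by 2.38 in log2(FPKM + 1).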

How the data were processed

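The authors deposited 1 RSEM table per tissue; the submitters' processing notes name Trimmomatic and RSEM with no version. No source used here names the assembler, the aligner or their settings. Expected counts in the deposited tables estimate the fragments of each transcript and carry no normalization, per the file headers. The authors' TPM and FPKM come from RSEM and rest on counts, effective length and library total, per the file headers. The deposited percent of each gene identifier was not used, since each transcript has its own. The joined FPKM table was not used either.

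The tables were joined on the transcript identifier, with a pseudocount of 1. Ratios are of count shares scaled by library totals, with exact 95% Clopper-Pearson intervals, not adjusted over transcripts. Medians have order-statistic intervals. With 1 library per tissue no test was made. The set and the descriptions were chosen with earlier results of these data known. Examples were chosen by a rule: the 10 highest in leaf FPKM, the 5 highest in flower FPKM, the 5 largest ratios, the shortest and longest, 3 on each side of the limit, and loci with several leaf-high transcripts (up to 5 by leaf counts). The changes of form, the clusters and the example cluster were described after their values were seen. The rule and intervals were tried on simulated independent Poisson counts with set changes, the same model that the intervals assume. The simulation had no shared reads and no variation between libraries. It therefore checks the calculation and does not show that the intervals hold for these data. Alternatives were other pseudocounts, minimums, limits, units and scalings. Python 3.11.15 was used with scipy 1.17.1, pandas 2.3.3 and numpy 2.4.6, and edgeR 4.0.16 (R 4.3.3) gave the TMM factors. The reads carry no molecular identifiers, so intervals may be too narrow.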

Additional observations from a re-analysis of the deposited data

How the results depend on the processing

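Of 106 alternative values, 57 stayed within their limit (1.5 times for a count, the 95% interval for a share or median) and 49 moved. No paired analysis was possible because there are no replicates, and no library could be left out. Shares have very narrow counting intervals, so small changes count as moves. TMM scaling, which lowers each flower to leaf difference by 0.25 in log2, gave 278 leaf-high transcripts, all 225 among them, with 19.4% of leaf and 3.30% of flower counts, and median-of-ratios scaling 276, with 19.4% and 3.28%. The shares were 16.3% and 2.45% with a pseudocount of 0.1, 15.8% and 2.34% with one of 5, 15.7% and 2.31% with calls by TPM, and 16.8% and 2.56% as shares of TPM. Transcripts alone at their locus, an alternative added after seeing the data, held 12.9% and 2.00%. A minimum of more than 500 counts gave 400 transcripts (18.4% of leaf, 2.69% of flower), a median flower FPKM of 28.0, 358 with a whole interval above 4-fold, 101 with a locus partner, 358 leaf-high loci and 320 with a flower FPKM of 10 or more. A minimum of more than 2000 gave 118 (13.5%, 2.10%), 98.3, 110, 29, 104 and 116 for the same quantities. A limit of -1.5 gave 341 (24.4%, 4.90%), a median flower FPKM of 66.2, a median ratio of 5.15, 95 with a partner and 322 with a flower FPKM of 10 or more. A limit of -3 gave 93 (5.52%, 0.386%), 25.5, a median ratio of 15.5, 93 above 4-fold, 27 with a partner, 81 leaf-high loci and 74 with a flower FPKM of 10 or more. Leaf-high locus partners numbered 8 of 25 with 100 or more counts, 4 of 16 with 500 or more, and 21 of 25 at a limit of -1. A flower FPKM of 50 or more was met by 115. Median length stayed within its interval in each of the 10 settings in which it was computed. Stricter minimums and limits leave fewer transcripts by construction, and the cause was not tested for the other moves. Flower counts limit the largest ratios, down to 4 reads.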

Other observations

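Below the count minimum lies a further leaf-high group. Among the 14349 transcripts with 100 to 1000 counts over both tissues, 886 (6.17%) were leaf-high by 2 or more in log2(FPKM + 1), and they held 5.12% of leaf counts and 0.629% of flower counts. Their median ratio of leaf to flower count shares was 8.19, and 170 had a whole 95% counting interval above 10-fold. Of the 886, 3 had no flower read and 22 had at most 3. Their median length was 1201 bases, close to the 1194 of the abundant set. The length of the other transcripts with 100 to 1000 counts was not summarized. Whether the 886 were shorter than those is therefore not shown. At the other end, 16 of the 60 transcripts above 10000 counts were leaf-high (26.7%), with a median ratio of 5.33 and a whole interval above 10-fold for 1 of them. Above 1000 and up to 10000 counts 209 of 1742 were leaf-high (12.0%), with a median ratio of 7.01.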
